A study of Cucumis sativus with 6 samples.

Results

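Abundant transcripts that stayed within 2-fold across the phloem of 3 cucumber organs were collected from the deposited expression table. A gene was taken as a member when all 6 libraries held at least 3000 TPTM and the highest organ mean was under 2 times the lowest. The members were thus chosen by their scores in the same 6 libraries described here. This rule found 238 of the 15720 listed genes, 1.51% of them. TPTM is the authors' whole-number score. It is read here as a gene's part of 10000000, because every library sums to about that total; the authors' definition is not given in the sources used here, and each share of all expression below rests on this reading. On this scale, 3000 TPTM is a high level where the median listed gene had 128 to 158 TPTM. The floor and the fold limit chose the members, so their levels and the nearness of their organ means are descriptions and were not tested.

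The libraries came from phloem that had been cut out by laser microdissection from pedicle, stalk and fruit of cucumber inbred line 9930, harvested 3 days after anthesis (flower opening). All groups shared this line and this stage, none carried a treatment or a transgene, and each organ had 2 libraries, which the design text calls biological replicates. RNA from the dissected cells was amplified before library preparation, per the labels' protocols. The labels do not give the number of plants behind a library, and how pedicle was told from stalk is not stated.

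Phloem carries sugars, amino acids and signalling molecules from leaves to growing organs through sieve elements, which lose their nucleus as they mature and are kept alive by adjoining companion cells. Cucurbits have phloem on both sides of the xylem in a bundle as well as strands outside the bundles. In plant tissues in general, transcripts of the protein synthesis machinery, protein turnover, the cytoskeleton and central metabolism are often abundant and even, and members of these families serve as reference transcripts. Which of the members belong to such families is not stated here, because the table names genes by locus identifier and 0 of its identifiers occur in the RefSeq table of 23999 cucumber genes. For the same reason the phloem label could not be checked against marker genes.

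The members formed a small group that took a large part of all expression in each organ. Pedicle replicates 1 and 2 gave 28.4% and 29.2% of their expression to the members, stalk replicates 28.5% and 30.6%, and fruit replicates 28.7% and 27.3%. The mean share was 28.8% ± 0.57 for pedicle, 29.5% ± 1.47 for stalk and 28.0% ± 0.99 for fruit (SD, n = 2). The ranges of all pairs of organs overlapped. The 59 genes that passed the floor but exceeded the fold limit took 13.7% and 12.6% of pedicle expression. They took 10.7% and 11.2% of stalk and 11.2% and 9.53% of fruit expression. Their median mean level was 10659 TPTM, against 7308 TPTM for the members. The rule parted these genes from the members by organ means, so it bears on how steady the shares were. Fewer cells of a type and less RNA per cell cannot be told apart in such bulk libraries.

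**Figure D1:**
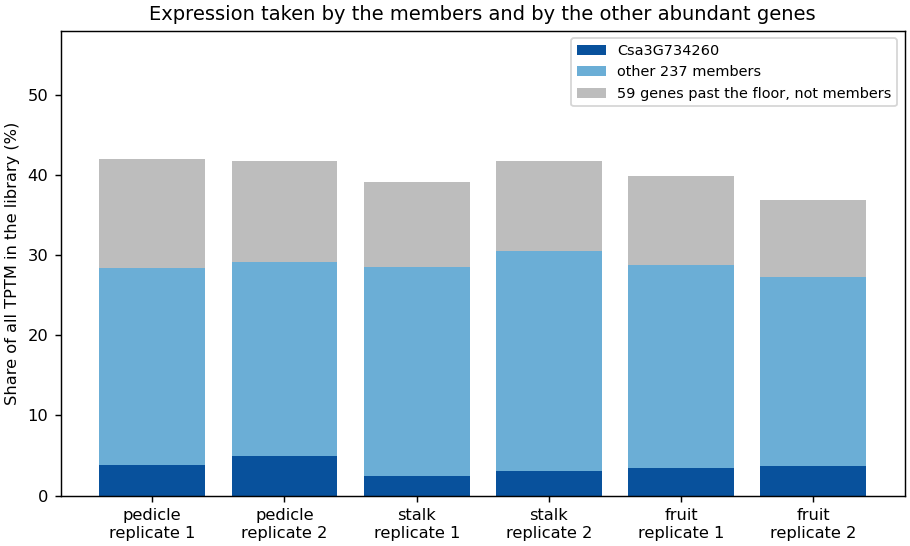
Share of all TPTM (percent, vertical axis) in each library taken by Csa3G734260 (dark blue), the other members (light blue) and the 59 genes past the floor that are not members (grey). The 2 blue parts together end between 27.3% and 30.6% in all 6 libraries, while the dark blue part runs from 2.40% to 4.98%.

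Expression was concentrated in few members. The median member averaged 7308 TPTM over the 6 libraries, the quartiles were 5319 and 11462 TPTM, and the extremes were 3483 and 357967 TPTM. A mean of at least 10000 TPTM was reached by 77 members, at least 20000 TPTM by 26 and at least 50000 TPTM by 6. The 39 most abundant members held 50% of the expression of the group.

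Csa3G734260 had the highest level of all listed genes in each of the 6 libraries. It had 377818 and 497536 TPTM in pedicle, 239495 and 310753 TPTM in stalk and 347877 and 374320 TPTM in fruit. Pedicle held the 2 highest values and stalk the 2 lowest, and no organ overlapped another. This gene alone took 4.38% ± 0.85 of all pedicle expression, 2.75% ± 0.50 of stalk expression and 3.61% ± 0.19 of fruit expression (SD, n = 2). Its log2 difference was 0.26 ± 0.35 for pedicle against fruit, -0.40 ± 0.35 for stalk against fruit and 0.67 ± 0.35 for pedicle against stalk (SE from a limma fit of log2(TPTM + 5) over all tested genes). Without it, the other 237 members took 24.4% ± 0.28 of pedicle expression, 26.8% ± 0.96 of stalk and 24.4% ± 1.18 of fruit.

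The next 7 members by level lay between 41555 and 58299 TPTM on average, far below Csa3G734260. Csa2G247040 had 61509 and 46634 TPTM in pedicle, 56804 and 79776 TPTM in stalk and 50964 and 54108 TPTM in fruit. Csa3G154390 had 59740 and 51978 TPTM in pedicle, 42029 and 46534 TPTM in stalk and 49294 and 70816 TPTM in fruit. In Csa2G247040 stalk lay above fruit and pedicle overlapped both, whereas in Csa3G154390 stalk lay below all other libraries.

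Csa3G183350 had 41463 and 50626 TPTM in pedicle, 74076 and 70313 TPTM in stalk and 45443 and 36891 TPTM in fruit. Both stalk libraries exceeded all others, and pedicle and fruit overlapped. Csa7G009740 had 55985 and 63195 TPTM in pedicle, 47939 and 51907 TPTM in stalk and 55699 and 40166 TPTM in fruit. Csa4G651970 had 39092 and 46451 TPTM in pedicle, 59662 and 43700 TPTM in stalk and 67692 and 57497 TPTM in fruit. Pedicle was highest on average in Csa7G009740 and lowest in Csa4G651970, and in both genes stalk and fruit overlapped.

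Csa1G050240 had 45490 and 36333 TPTM in pedicle, 52975 and 59103 TPTM in stalk and 39253 and 48441 TPTM in fruit. Csa2G356660 had 23138 and 33768 TPTM in pedicle, 61395 and 52346 TPTM in stalk and 45463 and 33222 TPTM in fruit. Stalk exceeded all other libraries in both, and in both pedicle and fruit overlapped. Csa2G356660 was also the member nearest to the fold limit. The order of the 7 by mean level is loose, since the replicates of a single organ differed by up to 22972 TPTM in Csa2G247040, more than the 16744 TPTM that separate the first of the 7 from the last.

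**Figure D2:**
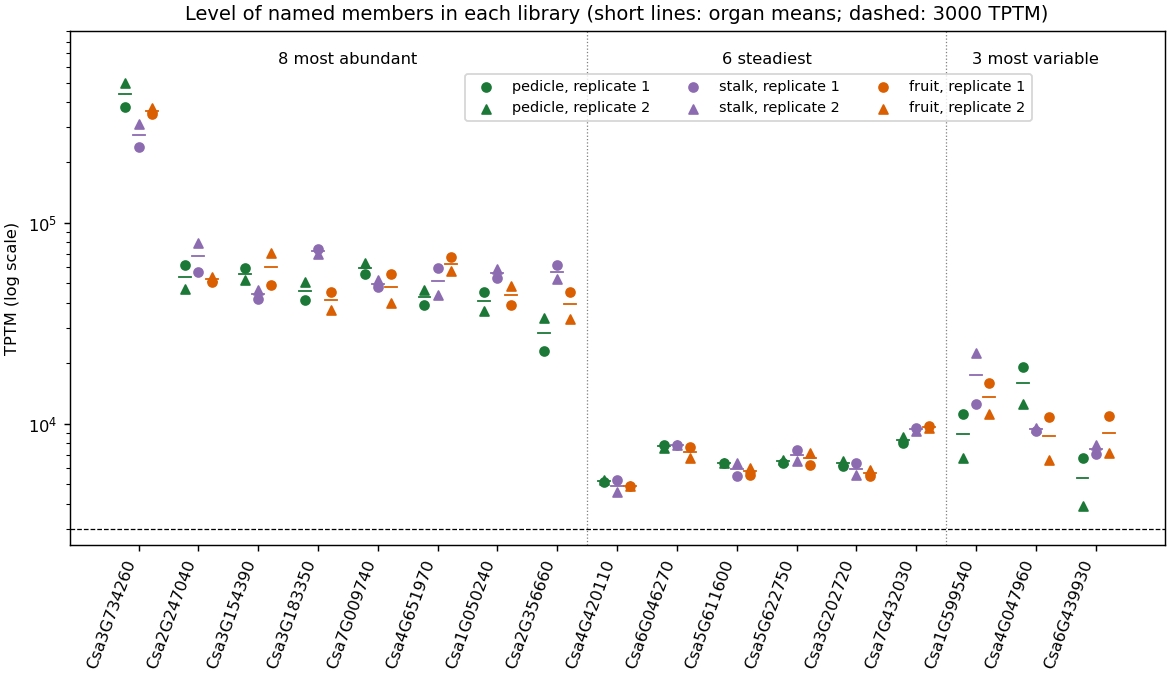
Score of 17 named members in each library (TPTM, log scale; circles replicate 1, triangles replicate 2, short lines organ means). Csa3G734260 stands above all others, the 6 steadiest members cluster tightly between 4595 and 9721 TPTM, and the 3 most variable members spread up to 3.37-fold over the 6 libraries.

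The steadiest members lay at moderate levels within the group. Csa4G420110 had the smallest ratio of the highest to the lowest library, 1.15, with 5119 and 5269 TPTM in pedicle, 5261 and 4595 TPTM in stalk and 4901 and 4875 TPTM in fruit. Csa6G046270 had 7856 and 7621 TPTM in pedicle, 7814 and 7855 TPTM in stalk and 7638 and 6789 TPTM in fruit, a ratio of 1.16. In each gene 1 library lay below the other 5, stalk replicate 2 for Csa4G420110 and fruit replicate 2 for Csa6G046270.

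Csa5G611600 had 6407 and 6399 TPTM in pedicle, 5475 and 6392 TPTM in stalk and 5548 and 6045 TPTM in fruit. Csa5G622750 had 6352 and 6638 TPTM in pedicle, 7397 and 6539 TPTM in stalk and 6249 and 7191 TPTM in fruit. Stalk and fruit overlapped in both genes. Csa3G202720 had 6194 and 6550 TPTM in pedicle, 6372 and 5589 TPTM in stalk and 5492 and 5923 TPTM in fruit. Csa7G432030 had 8067 and 8556 TPTM in pedicle, 9532 and 9261 TPTM in stalk and 9721 and 9508 TPTM in fruit. Pedicle lay below all other libraries in Csa7G432030, with organ means that differed by 1.16-fold. The log2 differences between organs for these 6 members ran from -0.21 to 0.16, with standard errors of 0.21 to 0.22. None exceeded its standard error, but the 6 were picked for a small ratio between libraries, which limits these differences.

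At the other end, Csa1G599540 had the largest ratio of the highest to the lowest library, 3.37. It had 11166 and 6721 TPTM in pedicle, 12544 and 22642 TPTM in stalk and 15969 and 11216 TPTM in fruit. Pedicle lay below all other libraries, and stalk and fruit overlapped. Csa4G047960 had 19192 and 12595 TPTM in pedicle, 9247 and 9514 TPTM in stalk and 10854 and 6568 TPTM in fruit, a ratio of 2.92. Csa6G439930 had 6777 and 3910 TPTM in pedicle, 7112 and 7817 TPTM in stalk and 10940 and 7134 TPTM in fruit, a ratio of 2.80. These 3 members were named for this ratio. Replicates were close in the stalk libraries of Csa4G047960 and Csa6G439930, but in no organ of Csa1G599540.

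The rule held the organ means of all 238 members within 2-fold, so it bears on the folds given here. The fold between the highest and lowest organ mean had a median of 1.41 and ran from 1.04 to 2.00, with 11 members under 1.1, 38 under 1.2 and 145 under 1.5. Over single libraries the median ratio of highest to lowest was 1.73, and 182 members kept all 6 libraries within 2-fold while 56 did not. In 98 of the 238 members, 41.2%, the widest gap between replicates of an organ exceeded the gap between the highest and lowest organ mean, which held for 44.9% of the 15381 tested genes. It held for 0 of the 59 genes past the floor that exceeded the fold limit. The rule parted these 59 genes from the members by their organ means, so nothing is read from this difference.

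The more abundant members were not the more even ones. The median organ fold was 1.36 in the 47 members with a mean under 5000 TPTM, 1.38 in the 114 members of 5000 to 10000 TPTM and 1.49 in the 77 members above. An organ fold under 1.2 was found in 23.4%, 14% and 14.3% of these 3 classes. The floor narrows the range that a member near 3000 TPTM can take, so the rule bears on this order. How much of the order comes from the rule was not tested.

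**Figure D3:**
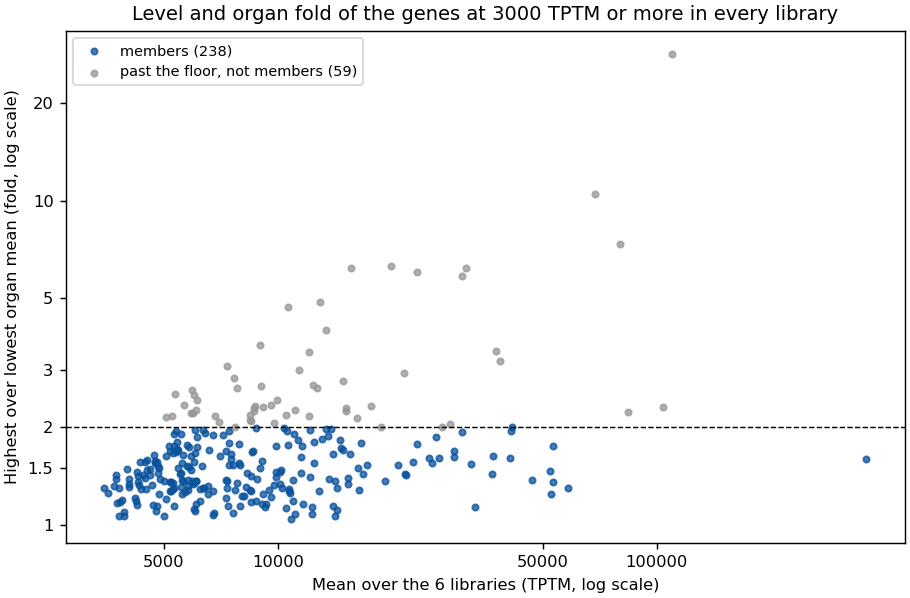
Highest over lowest organ mean (fold, log scale) against the mean over the 6 libraries (TPTM, log scale) for the genes at 3000 TPTM or more in every library. The 238 members (blue) lie under the dashed line at 2-fold, and the 59 genes that are not members (grey) reach 28.2-fold.

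Among genes above 50 TPTM, the share that lay within the fold limit changed little with level. Of the 10 most abundant listed genes 5 were members, of the 50 most abundant 30, of the 100 most abundant 66 and of the 200 most abundant 136. Organ means lay within 2-fold in 65.8% of the 523 tested genes that averaged 3000 TPTM or more, in 68.6% of those of 500 to 3000 TPTM, in 63.3% of those of 50 to 500 TPTM and in 35.2% of those below. Of the 523 genes, 344 met the fold limit, and 106 of these missed the floor in at least 1 library. The 59 genes past the floor that were not members had a median organ fold of 2.35. Pedicle was the lowest organ in 35 of them, against 97 of the 238 members.

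The members close to the limits show how narrow the choice was. Just inside the floor, Csa6G312580 had 3608 and 3124 TPTM in pedicle, 4539 and 4658 TPTM in stalk and 3444 and 3006 TPTM in fruit, and Csa6G006740 had a lowest library of 3016 TPTM. Just outside it, Csa4G645300 had a lowest library of 2999 TPTM and Csa3G698560 one of 2956 TPTM. Near the fold limit, Csa2G356660 (1.999) and Csa6G450410 (1.990) were inside, and Csa4G376140 (2.003) and Csa3G119300 (2.003) were outside. Csa6G450410 had 7765 and 5421 TPTM in pedicle, 9600 and 13155 TPTM in stalk and 13962 and 12285 TPTM in fruit, whereas Csa4G376140 had 5206 and 5461 TPTM in pedicle, 9850 and 11513 TPTM in stalk and 7790 and 6507 TPTM in fruit. At the floor, the lowest libraries of Csa6G312580 (3006 TPTM) and Csa4G645300 (2999 TPTM) were closer than the replicates of Csa6G312580 in any organ. At the fold limit the folds were close but the levels were not, and the folds were not compared with the spread between replicates.

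The organ with the highest level varied among the members. As deposited, 75 members were highest in pedicle, 89 in stalk and 74 in fruit, and 97 were lowest in pedicle, 51 in stalk and 90 in fruit. These counts followed the scaling. With trimmed-mean (TMM) factors 92 were highest in pedicle, 99 in stalk and 47 in fruit, and with quantile normalisation 89 were highest in pedicle, 62 in stalk and 87 in fruit. The median log2 difference of the members was -0.02 for pedicle against fruit, 0.08 for stalk against fruit and -0.10 for pedicle against stalk, beside -0.21, -0.12 and -0.07 over all tested genes. The sign of the members' medians turned with the scaling. With TMM factors the median was 0.17 for pedicle against fruit, beside -0.03 over all tested genes. With quantile normalisation it was -0.02 for stalk against fruit and 0.03 for pedicle against stalk, beside -0.01 and 0.03 over all tested genes. Measured from each gene's own mean, the members' median deviation stayed between -0.059 and 0.055 in the 6 libraries on the log2 scale. That of all tested genes ran from -0.12 in pedicle replicate 1 to 0.19 in fruit replicate 2. The rule held the members' organ means within 2-fold in these libraries, so it bears on their narrower range.

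The limma fit over all tested genes also covered the members. Pedicle and fruit differed in 23 members (9.66%) by limma (adjusted p under 0.05 over all tested genes), beside 22.6% of all tested genes. Of the 23, 14 were higher in pedicle and 9 lower. Pedicle and stalk differed in 13 members (5.46%, 3 higher in pedicle and 10 lower), beside 13.1% of all tested genes. Stalk and fruit differed in 0 members, beside 2.95% of all tested genes, while 39 members (16.4%) had an unadjusted limma p under 0.05, against 19.2% of all tested genes. The rule used the same contrasts, so nothing is read from these counts. In all, 34 members (14.3%) were called in at least 1 comparison, as were 26.4% of all tested genes, and 204 members in none, which does not show that these were equal: the 95% interval of a member's log2 difference had a median width of 0.53 to either side. With TMM factors the split between pedicle and fruit was 20 members higher in pedicle and 1 lower, where all genes split into 1546 higher and 1721 lower. With quantile normalisation the split between pedicle and stalk was 10 members higher and 7 lower, where all genes split into 857 and 1184. Leaving out any 1 library left 3 to 9 calls between pedicle and fruit and 0 to 8 between pedicle and stalk, where all genes numbered 1768 to 3516 and 390 to 2381. Without the intensity trend 0 members were called in any comparison, where 2880 genes were called between pedicle and fruit and 1544 between pedicle and stalk.

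Csa7G209580 and Csa1G256200 were the members with the largest called rise in pedicle. Csa7G209580 had 19578 and 14744 TPTM in pedicle, 11576 and 9771 TPTM in stalk and 7207 and 10279 TPTM in fruit, a log2 difference of 0.98 ± 0.26 for pedicle against fruit (SE). Csa1G256200 had 16600 and 14231 TPTM in pedicle, 9330 and 7401 TPTM in stalk and 7017 and 8831 TPTM in fruit, a log2 difference of 0.96 ± 0.24 for pedicle against fruit and 0.89 ± 0.24 for pedicle against stalk. In both genes the pedicle libraries exceeded all others and stalk and fruit overlapped.

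Csa2G356660 and Csa2G365650 were the members with the largest called fall in pedicle, both against stalk. Csa2G356660, whose values are given above, had a log2 difference of -1.02 ± 0.29. Csa2G365650 had 4804 and 7212 TPTM in pedicle, 11607 and 12189 TPTM in stalk and 9970 and 6784 TPTM in fruit, a log2 difference of -1.01 ± 0.28. Stalk exceeded all other libraries and pedicle overlapped fruit. The calls of these 4 genes were lost without pedicle replicate 1 and without the intensity trend. That of Csa7G209580 was also lost without fruit replicate 1, without either stalk replicate or with only the compared organs in the fit, and that of Csa1G256200 against fruit also without fruit replicate 1 and against stalk without any pedicle or stalk replicate. That of Csa2G356660 was also lost without any stalk or fruit replicate, with only the compared organs in the fit and with TMM factors, and that of Csa2G365650 without either stalk replicate and with TMM factors or quantile normalisation.

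Libraries of the compared organs did not overlap in 143 members for pedicle against fruit (60.1%), in 135 for stalk against fruit (56.7%) and in 136 for pedicle against stalk (57.1%). Over all tested genes this held for 57.9%, 54.4% and 57.0%. The members' shares were near those of all genes, and the rule bears on them.

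The spread between replicates, which the rule did not use directly, was small in the members. The median standard deviation between the 2 libraries of an organ was 0.16 in pedicle, 0.14 in stalk and 0.16 in fruit on the log2(TPTM + 5) scale. In the 59 genes past the floor that were not members it was 0.18 in pedicle, 0.20 in stalk and 0.25 in fruit, and over all tested genes it was 0.32, 0.19 and 0.27. Replicates were more than 1.5-fold apart in 21 members in pedicle (8.82%), 23 in stalk (9.66%) and 18 in fruit (7.56%), and in 38.9%, 15.3% and 30.4% of all tested genes. In the 59 genes past the floor that were not members this share was 15.3% in pedicle, 8.47% in stalk and 28.8% in fruit, so in stalk it was below that of the members. More than 2-fold apart was 1 member in each organ. Level moved with the spread. The median over organs was 0.34 under 50 TPTM, 0.25 from 50 to 500 TPTM, 0.19 from 500 to 3000 TPTM and 0.18 above, against 0.15 in the members. The part of level and of the rule itself in the members' spread was not tested.

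**Figure D4:**
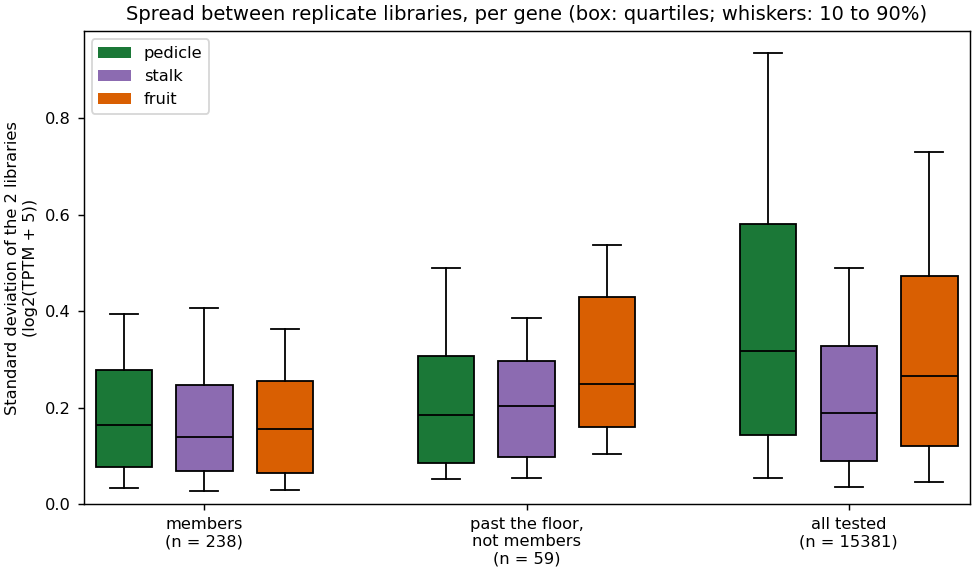
Standard deviation between the 2 libraries of an organ, per gene, on the log2(TPTM + 5) scale, for the members, the genes past the floor that are not members and all tested genes (line: median; box: quartiles; whiskers: 10th to 90th percentile; green pedicle, purple stalk, orange fruit). The members' medians lie at 0.14 to 0.16 in all organs, while those of all tested genes lie at 0.19 to 0.32.

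To see how far the choice carried over to libraries it had not used, the rule was applied to the 3 libraries numbered replicate 1 and the chosen genes were then measured in the 3 libraries numbered replicate 2. The rule chose 263 genes in replicate 1, of which 206 (78.3%) were within 2-fold in replicate 2 and 190 also reached 3000 TPTM in all 3 of its libraries. The median fold there was 1.58. Of the 67 genes that reached the floor in replicate 1 but exceeded its fold limit, 24 (35.8%) were within 2-fold in replicate 2. In the reverse direction the rule chose 236 genes in replicate 2, of which 204 (86.4%) were within 2-fold in replicate 1 and 190 also passed the floor, with a median fold of 1.46. Of the 92 genes over the fold limit in replicate 2, 43 (46.7%) were within 2-fold in replicate 1. Of all genes past the floor in the first set of libraries, whatever their fold, 69.7% of 330 were within 2-fold in replicate 2 and 75.3% of 328 in replicate 1. Over all tested genes, most of them at far lower levels, the shares were 49.0% in replicate 2 and 49.3% in replicate 1. Nothing in the labels ties replicate 1 of an organ to replicate 1 of another, so the number names a library only.

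**Figure D5:**
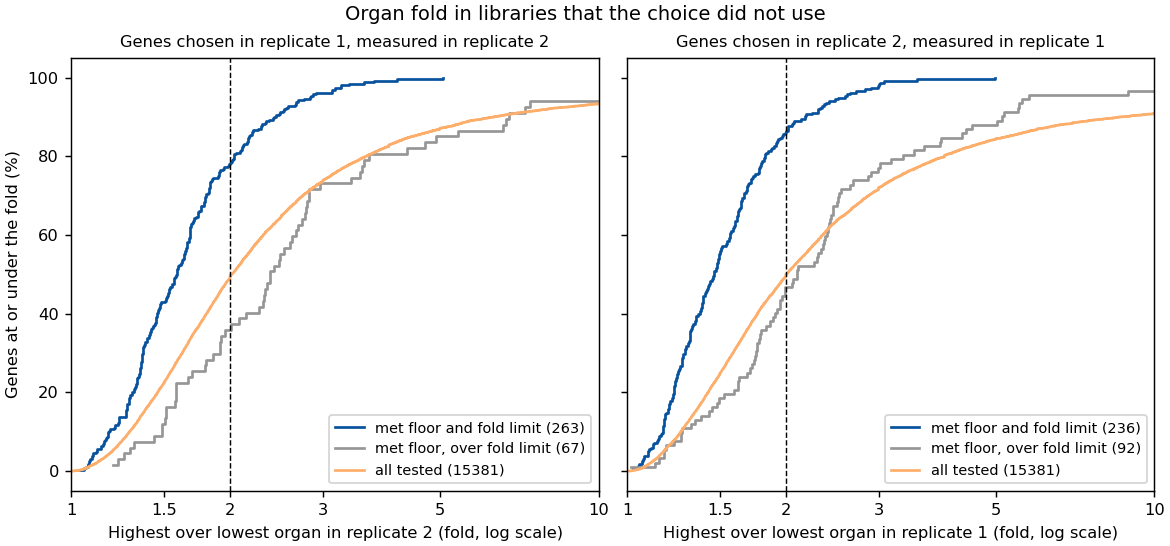
Percent of genes (vertical axis) whose highest over lowest organ value is at or under the fold on the horizontal axis (log scale), in the libraries that the choice did not use. At the dashed line of 2-fold the chosen genes (blue) reach 78.3% and 86.4%, the genes past the floor but over the fold limit (grey) 35.8% and 46.7%, and all tested genes (orange) 49.0% and 49.3%.

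The members were spread over all 7 numbers that their identifiers carry, a number that in this naming system of the cucumber genome stands for the chromosome. Identifiers of number 3 held 51 members (21.4% of members, 21.0% of listed genes), and number 2 held 39 (16.4% of members, 12.5% of listed genes). Number 6 held 35, number 1 34, number 5 30, number 7 25 and number 4 24, and the 68 listed genes without a number held 0. The share of listed genes that were members ran from 1.26% for number 4 to 1.99% for number 2. No position along a chromosome was used, and the difference between numbers was not tested.

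Some members stood next to each other in the order of listed identifiers. There were 8 such pairs, 16 members or 6.72% of all, and the pair with the highest summed level was Csa5G495920 with Csa5G495940. Csa5G495920 had 19453 and 22643 TPTM in pedicle, 37027 and 30345 TPTM in stalk and 29606 and 20609 TPTM in fruit. Csa5G495940 had 32262 and 36675 TPTM in pedicle, 57704 and 60030 TPTM in stalk and 33899 and 26575 TPTM in fruit. Both were highest in stalk, which exceeded all other libraries in each, and pedicle and fruit overlapped. In all, 2 of the 8 pairs had the same highest organ in both genes. Neither the number of pairs nor this count was set against genes picked at random, so nothing is read from them. In the pair Csa5G640520 and Csa5G640530, singled out after its values were seen, pedicle was the highest organ of the first gene and the lowest of the second. Csa5G640520 had 22419 and 15510 TPTM in pedicle, 9739 and 10459 TPTM in stalk and 11780 and 11502 TPTM in fruit, and Csa5G640530 had 19757 and 17968 TPTM in pedicle, 25418 and 26993 TPTM in stalk and 30867 and 29587 TPTM in fruit. How the authors' counting treated reads of near-identical copies is not given. Whether any of these pairs are such copies cannot be checked from the scores.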

How the data were processed

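Laser-dissected phloem was measured by RNA sequencing in 6 libraries, 2 each of pedicle, stalk and fruit. The submitters' processing notes name TopHat and HTSeq, whose versions, annotation and genome build were not given in the sources used here. In 1 table, the authors deposited a whole-number score (TPTM) per gene and library, in which columns sum to 9991842 to 9995581; these are normalised, rounded values and not read counts, and no correction for gene length is recorded. The read depth of each library is not in the table, so no counting interval is given; rounding changes a score of 3000 by at most 0.0167%. Every listed gene had an organ mean of at least 10 TPTM, so the table starts at that level.

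Columns were matched to libraries by title. Log2(TPTM + 5) of 15381 genes (10 TPTM or more in 2 or more libraries) was fitted with limma 3.58.1 in R 4.3.3 (1 term per organ, all 6 libraries, empirical Bayes with an intensity trend, 3 residual and 7.76 prior degrees of freedom) and p-values were adjusted by Benjamini-Hochberg over all tested genes. This spread is that between 2 libraries an organ, pooled over organs. TMM factors were computed without precision weights. The procedure was run on simulated data as a check of the code. In the simulated libraries of the fit the spread was shuffled among genes. They therefore do not bear on the intensity trend or on the calls of the members. Alternatives were the pseudocount (1, 20), the filter (none, 50 TPTM), scaling, the replicate number as a term, 2 organs only, no trend, a robust prior, each library left out, and other limits in the rule. Lists by product words were not applied because no identifier matched an annotation. Members named were the 8 most abundant, the 6 with the smallest and 3 with the largest ratio between libraries, those nearest the limits, up to 2 called in each direction, and the neighbouring pair with the highest summed level. The members and lists were chosen with earlier results of these data known.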

Additional observations from a re-analysis of the deposited data

How the results depend on the processing

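The number of members depended on the limits of the rule. A floor of 2000 TPTM gave 392 genes, a floor of 5000 TPTM 127, and a fold limit of 1.5 gave 145. Scaling, the libraries used and a fold limit of 3 stayed within 1.5 times 238 (235 to 250 without 1 library). The genes themselves changed in part. With TMM factors 219 of the 237 genes were members, and with quantile normalisation 227 of 234. Replicate 1 alone gave 263 genes, 219 of them members, and replicate 2 alone 236, with 208. Without 1 library, 224 to 232 of the members were kept. In pedicle, stalk and fruit, the genes chosen with a floor of 2000 TPTM took 33.7%, 34.6% and 33.1% of expression. Those chosen with 5000 TPTM took 23.2%, 23.6% and 22.2%. With a fold limit of 1.5 the shares were 13.7%, 14.2% and 13.9%, and with 3 they were 33.4%, 36.5% and 35.0%. Without 1 library of an organ, the members' share is that of its other library, as given above, and so no further check. Members called between pedicle and fruit, 23 as reported, numbered 13 with the replicate block, 7 with only those organs in the fit, 0 without the intensity trend and 3 to 9 without 1 library. Between pedicle and stalk, 13 as reported, they numbered 7 with TMM factors, 6 with the replicate block, 8 with only those organs, 0 without the trend and 0 to 8 without 1 library. Between stalk and fruit, 0 as reported, they numbered 1 with a filter of 50 TPTM, 2 with quantile normalisation, 1 with a robust prior and 0 in every fit without 1 library. All genes called between pedicle and fruit numbered 2169 with only those organs and 1768 to 3516 without 1 library; between stalk and fruit they numbered 702 with only those organs, 133 without the trend and 15 to 693 without 1 library; between pedicle and stalk they numbered 390 to 2381 without 1 library. The cause was not tested, and the fit takes the lone library of an organ to have the same spread as the rest. With the replicate block the calls of Csa1G256200, Csa2G356660 and Csa2G365650 between pedicle and stalk were lost. The members' median log2 differences, -0.02, 0.08 and -0.10 as reported, were 0.17 for pedicle against fruit, 0.20 for stalk against fruit and -0.036 for pedicle against stalk with TMM factors, and -0.021 for stalk against fruit and 0.028 for pedicle against stalk with quantile normalisation. Without 1 library they ran from -0.083 to 0.057 for pedicle against fruit, 0.040 to 0.098 for stalk against fruit and -0.098 to -0.069 for pedicle against stalk. Replicate numbers gave no sign of pairing: the gap of replicate 1 over replicate 2 had a correlation across genes of -0.0487 for pedicle and fruit, 0.0103 for stalk and fruit and -0.117 for pedicle and stalk. Some alternatives (the filter, the replicate term, 2 organs only, the trend and the prior) leave a log2 difference itself unchanged. Leaving out a library of the organ not compared does so too. An uncalled difference could not move under these. Of 1200 alternative log2 differences of the 25 named members, 1123 kept near the reported value or kept their call, in part for this reason. Another 41 moved by more than 1 standard error, and 36 lost their call. Only alternatives of a called difference could lose a call: 60 of these kept it, 36 lost it and 0 reversed.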
